A study of Mus musculus with 7 samples.

Results

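The comparison described here sets induced neural stem cells (iNSCs) of the DTA line against control neural stem cells (cNSCs) of the mouse embryonic brain. It takes in 9555 of the 24354 gene symbols of the deposited table, namely those that reach 5 FPKM in the higher of the 2 libraries. FPKM stands for fragments per kilobase of transcript and per library size, a level that can be compared between genes. Each side is 1 library made from RNA pooled over 2 to 3 biological replicates, so the values have no replicate error and no test is possible.

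The series holds 7 libraries: the DTA line, cNSCs, 4 other iNSC libraries (pBKSM, pOKSM, mcBKSM clones 1 and 3) and the mouse embryonic fibroblasts (MEFs) that serve as the starting cell type. The DTA iNSCs came from E13.5 fibroblasts that carried Oct4-CreER with Rosa26-loxSTOPlox-DTA, with the strain labelled as unknown. In such cells a tamoxifen-dependent Cre driven by Oct4 (gene Pou5f1) removes a stop cassette, so that a diphtheria toxin gene kills cells that activate Oct4 while the inducer is present. The labels do not state the factors or the vector of this line, or whether the inducer was added. The cNSCs were labelled OG2/ROSA26, from heterozygous female mice, tissue brain, E13.5, and per the growth protocol came from the cerebral cortex. The other iNSCs and the MEFs were C57BL/6-Pou5f1 x 129X1/SvJ, E13.5, and carried Oct4-CreER with Rosa26-loxSTOPlox-EYFP, in which a fluorescent protein takes the place of the toxin. Fibroblasts were prepared from embryos without head, inner organs and spinal cord, infected with lentivirus or retrovirus, and then kept in neural stem cell medium. Strain, origin and factor treatment all differ between the DTA and cNSC libraries and cannot be told apart.

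Neural stem cells of the embryonic brain divide in culture under growth factors and carry the filament protein nestin and factors such as Sox2, Pax6 and Olig2. They keep a record of their position along the body axis in Hox and other patterning genes, and they can give rise to astrocytes, oligodendrocytes and neurons. Direct conversion aims at the same state from fibroblasts of trunk and limbs, which carry matrix and positional genes of their own.

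In the cNSC library the dorsal cortical markers Emx1 and Emx2 were at 0 or at the floor. Emx1 was listed at 0 in both libraries, and Emx2 had 4.47 FPKM in DTA iNSCs and 0.0251 FPKM in cNSCs. The cNSC library instead contained En2, a midbrain and cerebellar factor (3.05 FPKM in DTA iNSCs, 22.2 in cNSCs), Gbx2, a hindbrain factor (4.03 FPKM in DTA iNSCs and 11.5 in cNSCs), and the Hox genes Hoxa3, Hoxa4 and Hoxa5. It also had male transcripts, with Eif2s3y at 0.07299 FPKM in DTA iNSCs and 48.2 FPKM in cNSCs, although the label names female mice and does not give the sex of the embryos. Other forebrain genes were present in it, namely Nr2e1 (0.8002 FPKM in DTA iNSCs, 9.28 in cNSCs), Otx1 (0.726 FPKM in DTA iNSCs, 7.33 in cNSCs) and Lhx2 (12.2 FPKM in DTA iNSCs, 7.32 in cNSCs). It is called the cNSC library below, by its label, and no cortical identity is assumed for it.

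Depth was similar on both sides, at about 16.9 (in 1e6 fragments) in DTA iNSCs and 16.2 in cNSCs as estimated from the steps between low values, against 11.5 to 16.1 in the other libraries. The floor, taken as 3 fragments of a 2 kb transcript, then lies at 0.096 FPKM in DTA iNSCs and 0.1 FPKM in cNSCs, and covers counting error only. The number of genes with at least 1 FPKM was 11384 in DTA iNSCs and 11429 in cNSCs. In such bulk libraries, fewer cells of a type and less RNA per cell cannot be told apart.

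Most genes had like levels in both libraries. Of the 9555 genes, 7371 (77.1%) were within 1.5-fold, and the median difference of log2(FPKM + 1), DTA minus cNSC, was -0.0085. Genes 2-fold or more apart numbered 981 (10.3%), of which 438 (4.58%) were higher and 543 (5.68%) lower in DTA iNSCs. Differences of 4-fold or more were found at 123 genes (1.29%) higher and 205 genes (2.15%) lower in DTA iNSCs. At the lower limit of the rule, 28 genes with 5 to 5.05 FPKM in the higher library were taken in and 18 with 4.95 to 5 FPKM were left out. All folds and differences, here and below, are on this log2(FPKM + 1) scale, which understates those of low genes. Members of a list that passed the minimum only because they were high in 1 library had to differ, so counts and medians of lists describe the members that passed and stand beside the shares above. No difference is given against a library in which a gene is listed at 0.

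**Figure D1:**
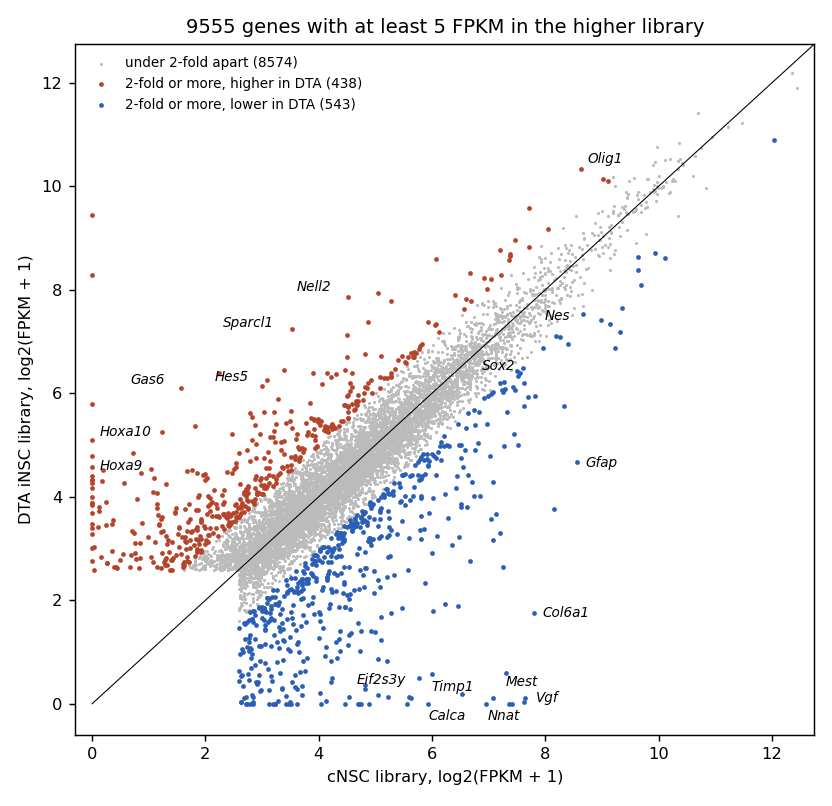
Level of each of the 9555 genes in the DTA iNSC library (vertical axis) against the cNSC library (horizontal axis), both as log2(FPKM + 1), with red points for the 438 genes 2-fold or more higher and blue points for the 543 genes 2-fold or more lower in DTA iNSCs. Nes and Sox2 lie on the line of equal levels, Hoxa9 and Hoxa10 on the left edge where cNSCs are listed at 0, and Mest, Nnat, Vgf and Calca along the bottom.

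The neural stem cell markers Nes, Sox2, Sox1, Pax6 and Olig2 were under 2-fold apart. Nes, the gene of the nestin filament, had 202 FPKM in DTA iNSCs and 225 FPKM in cNSCs, against 0.103 FPKM in MEFs. Sox2, the factor that maintains neural stem cells and is itself a reprogramming factor, had 106 FPKM in DTA iNSCs and 107 FPKM in cNSCs and was listed at 0 in MEFs. These levels were almost equal between the 2 neural libraries. Sox1, a Sox factor of the early neural plate, had 8.39 FPKM in DTA iNSCs and 8.93 FPKM in cNSCs. Pax6, a paired-box factor of radial glia, had 12.6 FPKM in DTA iNSCs and 9.597 FPKM in cNSCs. Olig2, a factor of the ventral neural tube and of oligodendrocytes that neural stem cells switch on in culture, had 193 FPKM in DTA iNSCs and 247 FPKM in cNSCs. These 3 genes were listed at 0 in MEFs. Of the 34 neural stem and radial glia genes listed, 29 reached 5 FPKM in the higher library. Of these, 3 were 2-fold or more higher and 4 lower in DTA iNSCs, beside 4.58% and 5.68% of all genes compared. Their median difference was -0.20, and 19 of the 29 lay below 0. The fibroblast genes Col1a1 (0.386 FPKM in DTA iNSCs, 0.242 in cNSCs) and Thy1 (0.0747 FPKM in DTA iNSCs and 0.03902 in cNSCs) were near the floor in both, while MEFs had 439.8 and 111 FPKM.

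The reprogramming factor genes did not separate the libraries. Pou5f1, the gene whose activity is lethal under induction in the DTA genotype, was listed at 0 in both. Pou3f4, which encodes Brn4, a POU factor of the neural tube, had 24.1 FPKM in DTA iNSCs and 27.2 FPKM in cNSCs, and was between 0 and 19.99 FPKM in the 4 other iNSC libraries. Myc, a driver of growth and division, had 50.1 FPKM in DTA iNSCs and 42.5 in cNSCs, against 78.9 to 485 in the other iNSCs. Klf4, a zinc finger factor, had 6.92 FPKM in DTA iNSCs and 4.08 FPKM in cNSCs. FPKM per gene does not separate vector from endogenous transcripts. Nanog, a pluripotency factor, had 0.4801 FPKM in DTA iNSCs and 0.0669 in cNSCs, and none of the 17 pluripotency genes listed reached 5 FPKM in either library.

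Over all 9555 genes compared, 10.3% were 2-fold or more apart. The neural stem and radial glia list had a larger share, since 22 of its 29 members were under 2-fold apart and 7 were not. Among the 7 that were not, Hes5, an effector of Notch signalling that holds back neuronal differentiation, had 69.6 FPKM in DTA iNSCs and 6.98 FPKM in cNSCs (log2 difference 3.14), against 4.02 to 16.7 FPKM in the other iNSCs. Its level in DTA iNSCs was thus above that in each of the other 6 libraries. The proteoglycan gene Bcan was higher (317 FPKM in DTA iNSCs, 101 in cNSCs), as was Gli3, a transcription factor of the Hedgehog pathway (11.8 FPKM in DTA iNSCs and 4.59 in cNSCs). Nr2e1, which encodes the orphan receptor Tlx of forebrain stem cells, was lower, at 0.8002 FPKM in DTA iNSCs and 9.28 in cNSCs. The intermediate filament gene Vim had 1901 FPKM in DTA iNSCs and 4206 in cNSCs, and the matrix gene Tnc had 185 FPKM in DTA iNSCs and 405 in cNSCs. Sox9, a glial and neural crest factor, had 16.7 FPKM in DTA iNSCs and 35.3 in cNSCs.

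Positional genes were among the largest differences upward. Hox genes lie in clusters A to D, and the order of their group numbers follows their order along the body axis, with low numbers in hindbrain and neck and high numbers in trunk, tail and limbs. Of the 39 Hox genes, 17 had at least 5 FPKM in DTA iNSCs and 3 in cNSCs. Their summed level was 285.7 FPKM in DTA iNSCs and 36.1 in cNSCs, against 35.3 to 164.3 in the other iNSCs and 77.2 in MEFs. Among the 19 members at 5 FPKM or more in the higher library, 16 were 2-fold or more higher and 2 lower in DTA iNSCs, beside 4.58% and 5.68% of all genes compared. The 16 passed the minimum through DTA iNSCs alone, with Hoxa7 the highest of them in cNSCs at 1.85 FPKM, so they had to be higher. The 2 lower ones passed through cNSCs alone. These counts therefore only describe the members.

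In cNSCs all genes of the HoxB, HoxC and HoxD clusters were listed at 0. In the HoxA cluster Hoxa10 (chr6:52231197-52240854) had 33.4 FPKM in DTA iNSCs and was listed at 0 in cNSCs, and it was 2.62 FPKM or less in the other iNSCs and 0.215 in MEFs. Hoxa9 (chr6:52223097-52227370) had 26.6 FPKM in DTA iNSCs and was listed at 0 in cNSCs, and it stayed at or under 0.165 FPKM in each of the other 5 libraries. Hoxa10 and Hoxa9 were thus high in the DTA library and low or at 0 in all others. The front of the cluster ran the other way: Hoxa3 had 2.903 FPKM in DTA iNSCs and 8.85 in cNSCs, and Hoxa4 had 2.07 FPKM in DTA iNSCs and 7.15 in cNSCs. Hoxa5, between them in position, had 10.7 FPKM in DTA iNSCs and 14.1 in cNSCs, under 2-fold apart. Hotairm1, a long noncoding RNA transcribed from the front end of HoxA and chosen after its values were seen, had 40.9 FPKM in DTA iNSCs and 6.32 FPKM in cNSCs.

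The HoxB and HoxC clusters were transcribed over most of their length in DTA iNSCs. Hoxb2, Hoxb6, Hoxb7 and Hoxb8 had 13.8, 18.2, 14.9 and 19.1 FPKM, and Hoxc6, Hoxc8, Hoxc9 and Hoxc10 had 20.2, 19.04, 13.2 and 17.1 FPKM, all being listed at 0 in cNSCs. HoxB was also on in pOKSM and the mcBKSM clones but with another pattern, since Hoxb6 did not exceed 0.0692 FPKM there while Hoxb3 reached 22.7 FPKM. Hoxc8 and Hoxc10 were listed at 0 in all 4 other iNSC libraries, and MEFs had 0.0278 FPKM of Hoxc8 and had Hoxc10 listed at 0. In the HoxD cluster DTA iNSCs had 13.8 FPKM of Hoxd8, with 0 listed in cNSCs, whereas the 5 genes of groups 9 to 13 together had 0.101 FPKM in DTA iNSCs and 0 in cNSCs. Those same 5 genes summed to between 26.95 and 37.4 FPKM in pOKSM and the mcBKSM clones. The 16 Hox genes of groups 9 to 13 over all clusters summed to 100.02 FPKM in DTA iNSCs, with all 16 listed at 0 in cNSCs, and to 13.3 FPKM in MEFs.

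**Figure D2:**
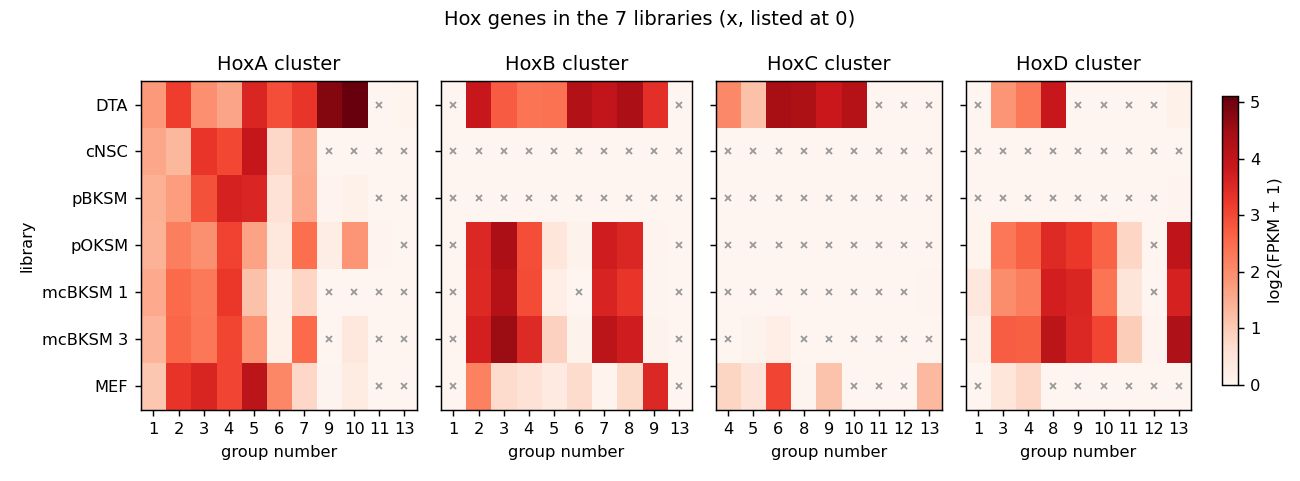
Level of the 39 Hox genes, as log2(FPKM + 1) by colour, in the DTA library (top row), cNSCs and the 5 other libraries, with a cross where a gene is listed at 0. In the DTA row HoxC and the high groups of HoxA are coloured, and in the cNSC row HoxA groups 1 to 7 are the only Hox genes not at 0.

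Other regional factors were added to this account after their values were seen. Tbx15, a T-box factor of trunk and limb mesenchyme, had 12.2 FPKM in DTA iNSCs and 0.0898 in cNSCs, with 12.7 FPKM in MEFs. Osr2, a factor of palate and limb, had 6.15 FPKM in DTA iNSCs and 0.119 in cNSCs, with 6.67 in MEFs. These 2 genes were present in the MEFs and in each of the iNSC libraries, at 11.2 to 54.5 and 9.07 to 22.8 FPKM in the 4 others. Barx1, a homeobox factor of jaw and stomach mesenchyme, differed in this respect, with 8.299 FPKM in DTA iNSCs, 0.975 in cNSCs and 0 listed in MEFs.

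Brain patterning genes were in part lower in DTA iNSCs. En2 was lower, with the values given above (log2 difference -2.52), and Egr2, the hindbrain segmentation factor Krox20, had 3.53 FPKM in DTA iNSCs and 11.2 in cNSCs. Otx1, a fore- and midbrain factor, had 0.726 FPKM in DTA iNSCs and 7.33 FPKM in cNSCs, and Barhl2, a homeobox factor of diencephalon and spinal cord, was listed at 0 in DTA iNSCs with 7.69 FPKM in cNSCs. The Iroquois genes Irx1, Irx3 and Irx5, which pattern the neural tube behind the forebrain, were under 2-fold apart, at 17.2, 13.2 and 15.9 FPKM in DTA iNSCs and 14.97, 10.2 and 11.5 FPKM in cNSCs. Irx1 stood at 0.0911 FPKM or less in the other iNSCs and at 18.8 FPKM in MEFs. Lhx2, a LIM factor of the telencephalon and of other tissues, had 12.2 FPKM in DTA iNSCs and 7.32 in cNSCs. Of the 27 forebrain genes listed 7 reached 5 FPKM in the higher library (0 higher and 3 lower by 2-fold or more), and of the 26 midbrain and hindbrain genes 11 had (0 higher and 3 lower). Of the 24 dorsoventral neural tube genes 5 had, none of them 2-fold apart. These counts stand beside 4.58% higher and 5.68% lower over all genes compared.

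Imprinted genes, which are transcribed from the allele of 1 parent, included 2 of the largest lower values, Mest and Nnat, while most were close. Of 36 listed, 17 reached 5 FPKM in the higher library, with 1 higher and 5 lower in DTA iNSCs by 2-fold or more and a median of -0.16. These counts stand beside 4.58% higher and 5.68% lower over all genes compared. The 5 lower ones passed the minimum through cNSCs alone, so they had to be lower. Mest (chr6:30733506-30748466), which encodes a hydrolase-like membrane protein of mesoderm, had 0.0263 FPKM in DTA iNSCs, at the floor, and 195 FPKM in cNSCs (log2 difference -7.58). It had 233 to 340.4 FPKM in the 4 other iNSC libraries and 117 FPKM in MEFs, so that the DTA library was the only low one of the 7. Nap1l5 (chr6:58905233-58907126), a nucleosome assembly protein-like gene, was listed at 0 in DTA iNSCs with 25.8 FPKM in cNSCs, 20.3 to 62.5 FPKM in the other iNSCs and 0 listed in MEFs. Nnat (chr2:157560078-157562525), which encodes neuronatin, a small membrane protein of the endoplasmic reticulum, was listed at 0 in DTA iNSCs with 163 FPKM in cNSCs. Among the others, pOKSM had 55.9 FPKM and pBKSM 8.71 FPKM, mcBKSM clone 1 was at the floor with 0.0674 FPKM, and clone 3 and MEFs were listed at 0. Thus Mest and Nap1l5 were absent in the DTA line alone among the iNSC libraries, and Nnat was also absent or at the floor in both mcBKSM clones.

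The host and neighbouring genes of these 3, named after their values were seen, were alike on both sides. Copg2, a coatomer subunit gene that overlaps the end of Mest, had 25.2 FPKM in DTA iNSCs and 21.2 in cNSCs. Klhdc10, a ubiquitin ligase adaptor gene near Mest, had 22.2 FPKM in DTA iNSCs and 22.3 in cNSCs. Blcap, whose intron holds Nnat, had 24.3 FPKM in DTA iNSCs and 20.9 in cNSCs, and Herc3, whose intron holds Nap1l5, had 6.23 FPKM in DTA iNSCs and 8.99 in cNSCs. Other transcribed imprinted genes, 11 of the 17, were likewise under 2-fold apart. Peg3, a zinc finger gene, had 22.7 FPKM in DTA iNSCs and 25.5 in cNSCs. Peg10, a retrotransposon-derived gene, had 28.1 FPKM in DTA iNSCs and 47.4 in cNSCs, and Sgce, which shares its promoter region, had 26.5 FPKM in DTA iNSCs and 19.5 in cNSCs. Snrpn, a splicing protein gene of the Prader-Willi region, had 30.3 FPKM in DTA iNSCs and 16.5 in cNSCs. Gnas, which encodes a stimulatory G protein subunit, had 864 FPKM in DTA iNSCs and 793 in cNSCs. Ndn, a neuronal growth suppressor of the Prader-Willi region, was lower (3.55 FPKM in DTA iNSCs, 10.8 in cNSCs), and its neighbour Peg12 was higher (37.2 FPKM in DTA iNSCs and 16.9 in cNSCs). H19, the maternal noncoding RNA beside Igf2, had 0.221 FPKM in DTA iNSCs and 9.19 in cNSCs, and was 0.37998 FPKM or less in the other iNSCs.

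The 250 bases before the transcript start of Mest (1 of its 3 RefSeq windows, lying inside the span of longer Mest transcripts), Nnat and Nap1l5 are shown because promoters of imprinted genes carry the methylation mark at CG pairs, here in capitals. They are RefSeq sequence on build GRCm38.p6, read 5′ to 3′ on the gene's strand, and are from the reference, not from these cells. The windows are chr6:30737800-30738049 (plus strand), chr2:157559828-157560077 (plus strand) and chr6:58907127-58907376 (minus strand).
Mest: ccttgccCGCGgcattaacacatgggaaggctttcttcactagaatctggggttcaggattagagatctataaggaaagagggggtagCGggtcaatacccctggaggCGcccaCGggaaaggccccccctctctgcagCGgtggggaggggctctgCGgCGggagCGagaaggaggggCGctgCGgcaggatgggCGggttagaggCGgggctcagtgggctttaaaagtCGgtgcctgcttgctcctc
Nnat: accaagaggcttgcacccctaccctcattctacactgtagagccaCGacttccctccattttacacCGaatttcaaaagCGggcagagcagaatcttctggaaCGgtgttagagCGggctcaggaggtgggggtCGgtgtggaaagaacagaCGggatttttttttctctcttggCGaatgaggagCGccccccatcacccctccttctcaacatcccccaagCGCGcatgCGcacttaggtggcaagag
Nap1l5: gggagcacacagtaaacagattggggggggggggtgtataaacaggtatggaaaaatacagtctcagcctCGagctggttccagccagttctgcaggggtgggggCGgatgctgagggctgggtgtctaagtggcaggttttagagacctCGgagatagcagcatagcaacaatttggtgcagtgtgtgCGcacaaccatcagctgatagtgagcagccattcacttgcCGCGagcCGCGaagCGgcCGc
They hold 14, 12 and 10 CG pairs. Where a gene had more than 1 window, the one with the most CG pairs was taken, for Mest as for all other genes. The median over 17193 windows of the same length for genes of the table was 11, and 42.8%, 48.2% and 53.4% of them had as many or more. DNA methylation was not measured in these libraries.

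**Figure D3:**
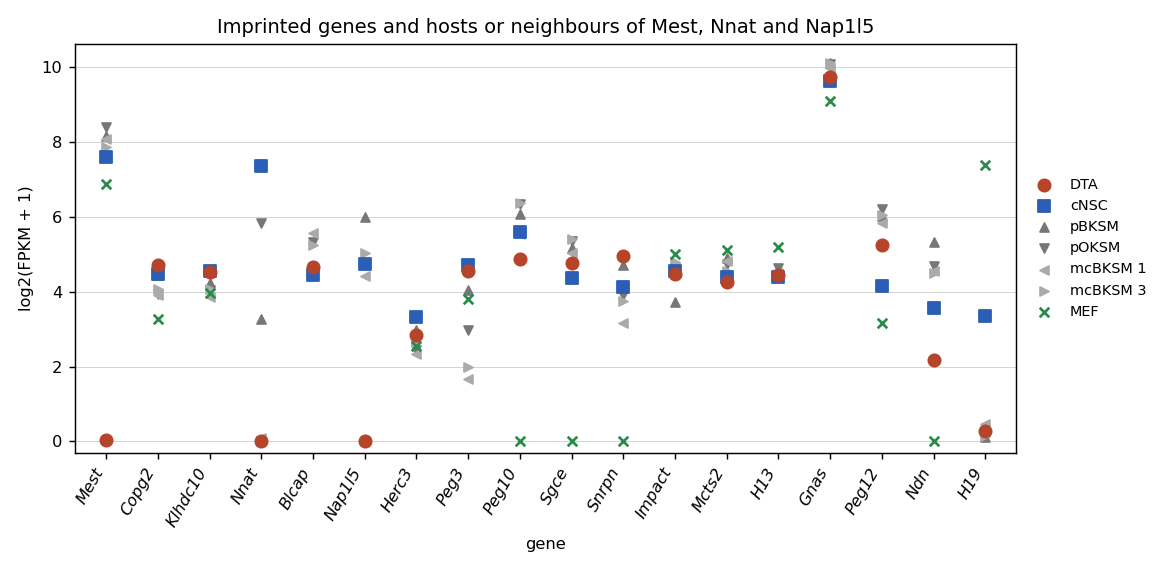
Level, as log2(FPKM + 1), of 18 genes in the DTA library (red circles), cNSCs (blue squares), the 4 other iNSC libraries (grey triangles) and MEFs (green crosses), with Mest, Nnat and Nap1l5 each followed by genes that overlap or neighbour them. The red circles of Mest, Nnat and Nap1l5 lie at or near 0 while those of Copg2, Klhdc10, Blcap and Herc3 lie close to the blue squares.

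Y-linked genes were absent from the DTA line. Eif2s3y, a translation factor gene, and Ddx3y, an RNA helicase gene, had 0.07299 and 0.0391 FPKM in DTA iNSCs and 48.2 and 16.4 FPKM in cNSCs. The histone demethylase genes Kdm5d and Uty were listed at 0 in DTA iNSCs and had 9.68 and 5.63 FPKM in cNSCs. Xist, which coats the inactive X chromosome of female cells, was low in both (0.0821 FPKM in DTA iNSCs, 0.0343 in cNSCs). It was also low in MEFs (0.182 FPKM), where all 4 Y-linked genes were at 0. The 4 other iNSC libraries had 11.4 to 28.3 FPKM of Ddx3y, 3.52 to 8.73 FPKM of Kdm5d and 2.39 to 5.602 FPKM of Uty, whereas Eif2s3y had 31.2 FPKM in pBKSM and was listed at 0 in pOKSM and in both mcBKSM clones. The DTA and MEF libraries were thus alike, with Y-linked genes at the floor or listed at 0 and Xist at 0.182 FPKM or less.

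Glial genes differed in both directions. Of the 20 astrocyte genes listed, 18 reached 5 FPKM in the higher library, 4 of them 2-fold or more higher and 7 lower in DTA iNSCs, beside 4.58% and 5.68% of all genes compared, with a median of 0.04. Gfap, the filament gene of astrocytes (chr11:102887336-102897200), had 24.5 FPKM in DTA iNSCs and 374 FPKM in cNSCs (log2 difference -3.88), and 1.701 FPKM or less in the other iNSCs. Its level in the DTA line was thus far below cNSCs and above every other iNSC library. Apoe, a lipid carrier, had 199.7 FPKM in DTA iNSCs and 649.6 in cNSCs. The angiotensinogen gene Agt had 2.38 FPKM in DTA iNSCs and 37.6 in cNSCs. The secreted chaperone gene Clu had 12.1 FPKM in DTA iNSCs and 33.1 in cNSCs, and the gap junction gene Gja1 had 11.04 FPKM in DTA iNSCs and 25.8 in cNSCs. Higher in DTA iNSCs were Sparcl1, a secreted synapse-promoting protein (151 FPKM in DTA iNSCs, 10.5 in cNSCs), the water channel gene Aqp4 (12.7 FPKM in DTA iNSCs and 1.21 in cNSCs), the brain aldolase gene Aldoc (411 FPKM in DTA iNSCs and 165 in cNSCs) and the glutamine synthetase gene Glul (160.4 FPKM in DTA iNSCs and 66.4 in cNSCs). The glutamate transporter genes Slc1a2 and Slc1a3 were under 2-fold apart, with 19.4 and 437 FPKM in DTA iNSCs and 11.9 and 339 FPKM in cNSCs.

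The members lower in DTA iNSCs included genes known to go up in reactive astrocytes, the state that follows injury or inflammation, and a list of 13 such genes was added after this was seen. Of its 11 members at 5 FPKM or more in the higher library, 10 were 2-fold or more lower in DTA iNSCs and 0 were higher. The median was -3.34, beside 5.68% lower and a median of -0.0085 over all genes compared. The list was chosen from these values, and members such as Timp1, Hspb1 and Serpina3n passed the minimum through cNSCs alone. Its counts therefore only describe its members. Lcn2, an iron carrier, had 11.7 FPKM in DTA iNSCs and 139 in cNSCs, and 0.702 FPKM or less in the other iNSCs. Timp1, an inhibitor of matrix proteases (chrX:20870166-20874737), had 0.0816 FPKM in DTA iNSCs, at the floor, and 134 FPKM in cNSCs (log2 difference -6.96), with 0.1205 to 11.3 FPKM in the other iNSCs. Timp1 and Cd44, a hyaluronan receptor gene (10.8 FPKM in DTA iNSCs and 131 in cNSCs), were also high in MEFs, at 207 and 121 FPKM. The protease inhibitor gene Serpina3n had 1.65 FPKM in DTA iNSCs and 25.8 in cNSCs, and the small heat shock gene Hspb1 had 1.36 FPKM in DTA iNSCs and 33.2 in cNSCs. The chemokine gene Cxcl10 had 2.64 FPKM in DTA iNSCs and 21.04 in cNSCs, and up to 57.1 FPKM in the other iNSCs. Only Cp, the copper carrier ceruloplasmin, was close, with 94.95 FPKM in DTA iNSCs and 102 in cNSCs.

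**Figure D4:**
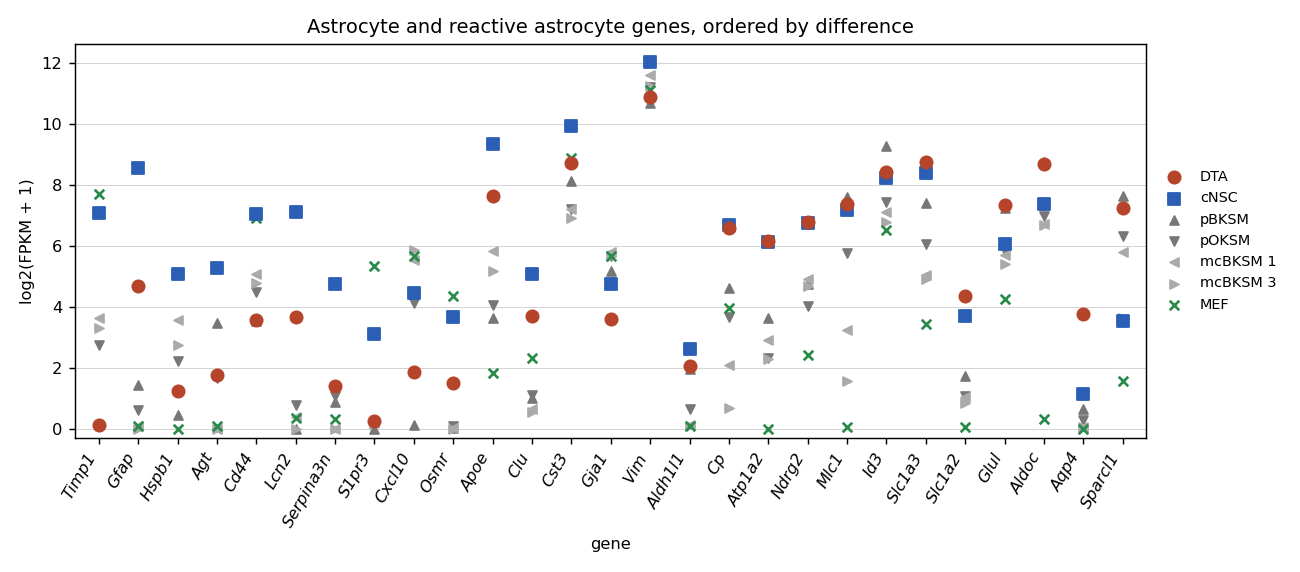
Level, as log2(FPKM + 1), of 27 astrocyte and reactive astrocyte genes in the 7 libraries (red circles, DTA; blue squares, cNSC; grey triangles, other iNSCs; green crosses, MEF), ordered from the most negative to the most positive difference between DTA and cNSC. From Timp1 to Osmr the blue squares lie far above the red circles, and at Aqp4 and Sparcl1 on the right the order turns round.

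Cytokines that act through the receptor gp130 are known inducers of Gfap, and their genes, added after values were seen, differed in both directions. The ligand gene Clcf1 had 0.486 FPKM in DTA iNSCs and 62.6 in cNSCs, and Lif, the leukaemia inhibitory factor, had 1.23 FPKM in DTA iNSCs and 7.33 in cNSCs. Of the receptors, Osmr and Il6ra were lower (1.85 and 0.4598 FPKM in DTA iNSCs, 11.8 and 10.9 in cNSCs), Cntfr and Il11ra1 were higher (29.5 and 8.998 FPKM in DTA iNSCs, 11.6 and 2.34 in cNSCs), and the shared subunit gene Il6st was under 2-fold apart (25.6 FPKM in DTA iNSCs and 30.5 in cNSCs). Socs3, an inhibitor that these cytokines induce, had 12.4 FPKM in DTA iNSCs and 32.8 in cNSCs, while the signal carrier Stat3 had 96.01 FPKM in DTA iNSCs and 69.4 in cNSCs. In all, 3 of 13 members with at least 5 FPKM were 2-fold or more higher and 6 lower, beside 4.58% and 5.68% of all genes compared.

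Of the 19 oligodendrocyte lineage genes listed, 7 reached 5 FPKM in the higher library, with 2 higher and 1 lower in DTA iNSCs by 2-fold or more. Over all genes compared 4.58% were higher and 5.68% lower. Olig1, a helix-loop-helix factor (chr16:91269769-91271939), had 1295 FPKM in DTA iNSCs and 393 FPKM in cNSCs (log2 difference 1.72), and 79.6 to 1038 FPKM in the other iNSCs. Bcas1, which marks early myelinating cells, had 109 FPKM in DTA iNSCs and 51.9 in cNSCs. Cspg4, the NG2 proteoglycan of progenitors and pericytes, had 0.0222 FPKM in DTA iNSCs and 5.15 in cNSCs. Cnp, a myelin enzyme gene, had 51.4 FPKM in DTA iNSCs and 44.5 in cNSCs, under 2-fold apart. Sox10, the lineage factor, was 0.02295 FPKM in DTA iNSCs and listed at 0 in cNSCs, and the myelin gene Mbp had 0.196 FPKM in DTA iNSCs and 0.379 in cNSCs.

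Most neuronal genes listed stayed under 5 FPKM in both libraries. Of the 34, 6 reached 5 FPKM in the higher library, with 0 higher and 3 lower in DTA iNSCs by 2-fold or more. Map2, a microtubule-associated protein gene of neurons, was well expressed and close, with 112 FPKM in DTA iNSCs and 117 in cNSCs. The growth cone gene Gap43 had 5.74 FPKM in DTA iNSCs and 100.2 FPKM in cNSCs (log2 difference -3.91), and Reln, a secreted guide of neuronal layering, had 0.217 FPKM in DTA iNSCs and 11.2 in cNSCs. Peptide and secretory granule genes gave 5 lower and 0 higher among the 6 of 24 that had at least 5 FPKM. Over all genes compared 5.68% were lower and 4.58% higher. Vgf, a granin-like peptide precursor induced by growth factors (chr5:137025301-137033351), had 0.0735 FPKM in DTA iNSCs and 199 FPKM in cNSCs (log2 difference -7.54), and 0.565 FPKM or less in the other 5 libraries. Calca, the precursor of calcitonin and of the peptide CGRP, was listed at 0 in DTA iNSCs and had 60.1 FPKM in cNSCs and 0.245 FPKM or less in the other iNSCs. Vgf and Calca were thus high in cNSCs alone. Cpe, which trims peptide hormones, had 144 FPKM in DTA iNSCs and 639 in cNSCs, and the granin genes Scg2 and Scg3 had 0.504 and 4.36 FPKM in DTA iNSCs and 8.94 and 16.7 FPKM in cNSCs. The convertase inhibitor gene Pcsk1n was close, with 13.6 FPKM in DTA iNSCs and 12.9 in cNSCs. Vgf, Calca, Scg2 and Scg3 passed the minimum through cNSCs alone, so they had to be lower in DTA iNSCs.

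Ionotropic glutamate receptor genes, a list added after values were seen, were mostly higher in DTA iNSCs. Of 9 members at 5 FPKM or more in the higher library, 6 were 2-fold or more higher and 1 lower, with a median of 1.40. These counts stand beside 4.58% and 5.68% of all genes compared. The list was chosen from these values, and Grik3 passed the minimum through DTA iNSCs alone, so the counts only describe its members. The kainate receptor gene Grik3 had 18.1 FPKM in DTA iNSCs and 0.485 in cNSCs and at most 0.00991 FPKM in the other 5 libraries. The AMPA receptor genes Gria3 and Gria4 had 41.7 and 49.6 FPKM in DTA iNSCs and 9.72 and 10.5 FPKM in cNSCs. Neto2, an auxiliary subunit of kainate receptors, was the member that was lower, with 23.3 FPKM in DTA iNSCs and 59.6 in cNSCs.

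Genes for adhesion and secreted proteins differed in both directions. Gas6, the ligand of the receptor kinases Axl, Mertk and Tyro3 (chr8:13465374-13494535), had 67.7 FPKM in DTA iNSCs and 1.96 FPKM in cNSCs (log2 difference 4.53), with 13.7 to 58.9 FPKM in the other iNSCs and 11.6 in MEFs. The cNSC library was the lowest of the 7 for this gene. Mfge8, which bridges dying cells to phagocytes, had 388 FPKM in DTA iNSCs and 66.6 in cNSCs, while the engulfment receptor gene Megf10 and its relative Megf11 were lower (2.32 and 0.561 FPKM in DTA iNSCs, 14.1 and 12.5 in cNSCs). Of the receptors of Gas6, Tyro3 had 38.4 FPKM in DTA iNSCs and 16.8 in cNSCs. Axl had 26.2 FPKM in DTA iNSCs and 33.5 in cNSCs, and Mertk had 4.02 FPKM in DTA iNSCs and 8.04 in cNSCs, both under 2-fold apart. Pdpn, the mucin-like protein podoplanin, had 82.97 FPKM in DTA iNSCs and 3.69 in cNSCs, and Nell2, a secreted neural protein with EGF-like repeats, had 232 FPKM in DTA iNSCs and 21.8 in cNSCs, with 12.1 FPKM or less elsewhere. Ctnna2, the neural alpha-catenin that ties cadherins to actin, had 21.8 FPKM in DTA iNSCs and 0.144 in cNSCs. The cadherin genes went both ways, Cdh4 and Cdh10 being higher (72.05 and 20.5 FPKM in DTA iNSCs, 22.5 and 2.904 in cNSCs) and Cdh6 and Cdh22 lower (4.62 and 3.76 in DTA iNSCs, 39.1 and 26.7 in cNSCs). The engulfment and the cadherin lists were added after values were seen, with 6 higher and 2 lower of 14 members at 5 FPKM or more, and 5 higher and 4 lower of 16. Over all genes compared 4.58% were higher and 5.68% lower.

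Of the 35 fibroblast genes listed, 14 reached 5 FPKM in the higher library, 1 of them 2-fold or more higher and 9 lower in DTA iNSCs, with a median of -1.99. Over all genes compared 4.58% were higher and 5.68% lower. With no minimum level the list median was 0.044. The 14 include members such as Col6a2, Acta2 and Fbln2 that passed through their level in cNSCs alone. The collagen VI genes Col6a1 (chr10:76708792-76726044) and Col6a2 (chr10:76595756-76623630) had 2.38 and 0.508 FPKM in DTA iNSCs and 221 and 158 FPKM in cNSCs (log2 differences -6.04 and -6.72). They had 119 and 49.9 FPKM in MEFs and no more than 1.69 and 1.09 FPKM in the other iNSCs, so that they were high in cNSCs and MEFs. Acta2, the smooth muscle actin, had 0.0972 FPKM in DTA iNSCs, 47.5 in cNSCs and 99.8 in MEFs. Fbln2, a fibulin of basement membranes, had 0.4201 FPKM in DTA iNSCs and 53.9 in cNSCs, and was 21.8 to 249 FPKM in the other iNSCs. The calcium-binding genes S100a4 and S100a6 had 7.35 and 1.71 FPKM in DTA iNSCs and 81.1 and 9.38 in cNSCs. In MEFs they had 3002 and 2644 FPKM. The member higher in DTA iNSCs was Fbln1, a fibulin of many matrices, with 34.8 FPKM in DTA iNSCs and 8.17 in cNSCs.

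Collagen genes as a whole gave 2 higher and 5 lower of 13 members with at least 5 FPKM, beside 4.58% and 5.68% of all genes compared. The counts of the other lists in this paragraph stand beside the same shares. The basement membrane collagen genes Col4a5 and Col4a6, which lie side by side on the X chromosome, had 14.8 and 0.126 FPKM in DTA iNSCs and 63.7 and 31.9 in cNSCs, and Col18a1 had 1.64 FPKM in DTA iNSCs and 29.3 in cNSCs. The fibril collagen gene Col11a1 was higher, with 44.8 FPKM in DTA iNSCs and 13.6 in cNSCs, as was Col5a3 (8.64 FPKM in DTA iNSCs and 3.14 in cNSCs). Of 16 pericyte and smooth muscle genes 7 had at least 5 FPKM, with 4 lower, namely Acta2, Cnn1, Tagln and Cspg4, and 1 higher, Notch3 (24.8 FPKM in DTA iNSCs, 11.6 in cNSCs). Caveola genes, a list added after values were seen, gave 4 lower and 0 higher of 7: Cav1, the coat protein of these membrane pits, had 2.8001 FPKM in DTA iNSCs and 73.8 in cNSCs, and its partner Cav2 had 20.3 FPKM in DTA iNSCs and 98.5 in cNSCs. The metal-binding metallothionein genes Mt1 and Mt2 were lower (159.8 and 116 FPKM in DTA iNSCs, 564 and 601 in cNSCs), and the neural member Mt3 was not (321 FPKM in DTA iNSCs and 252 in cNSCs).

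The level in MEFs, which entered neither side, was read for the genes that differed. Of the 438 genes higher in DTA iNSCs, 223 (50.9%, exact 95% binomial interval 46.1% to 55.7%) had at least 5 FPKM in MEFs. Of the 543 lower genes, 312 (57.5%, 53.2% to 61.7%) had, and of all 9555 genes 84.5%. The intervals of the higher and the lower genes overlap, and both lie under the share of all genes. At 4-fold or more the shares were 35.8% for genes higher and 45.4% for genes lower in DTA iNSCs. These intervals treat genes as independent draws, which they are not, and cover counting only.

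Some of the largest differences lay outside the lists. Mfap2, a protein of elastic microfibrils, had 18.9 FPKM in DTA iNSCs and 0.134 in cNSCs, and was listed at 0 in MEFs. Pcolce, which helps to trim fibril collagens, had 37.1 FPKM in DTA iNSCs and 1.34 in cNSCs, with 479.9 FPKM in MEFs. Sez6l, a neuronal membrane protein gene related to Sez6, had 27.8 FPKM in DTA iNSCs and 0.6503 in cNSCs. All 3 were more than 4-fold higher in DTA iNSCs. Lower were Pcp4l1, a small calmodulin-regulator-like gene (5.28 FPKM in DTA iNSCs, 152 in cNSCs), and Rgs4, an inhibitor of G protein signals (0.211 FPKM in DTA iNSCs, 27.3 in cNSCs). Tagln2, an actin-binding relative of transgelin, had 2.702 FPKM in DTA iNSCs and 86.8 in cNSCs, with 368 FPKM in MEFs. Tslp, a cytokine of epithelia, and Arpin, an inhibitor of the Arp2/3 actin nucleator, were listed at 0 in DTA iNSCs, with 28.7 and 21.2 FPKM in cNSCs.

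A stricter view took genes present on 1 side and nearly absent on the other. There were 57 genes with at least 5 FPKM in DTA iNSCs and under 1 FPKM in cNSCs, of which 14 had at least 5 FPKM in MEFs and 36 under 1 FPKM. In the other direction there were 97 genes, of which 36 had at least 5 FPKM in MEFs and 53 under 1 FPKM. Genes under 1 FPKM in all 6 other libraries numbered 11 for DTA iNSCs, of which 2 were small nucleolar RNAs and the others included Hoxa9, Hoxb6, Hoxc8, Hoxc10, Grik3, Ctnna3, Tmem132c and Agtr2. Ctnna3, an alpha-catenin of heart and brain, had 9.71 FPKM in DTA iNSCs and 0.0709 in cNSCs, and Agtr2, an angiotensin receptor, had 7.02 FPKM in DTA iNSCs and was listed at 0 in cNSCs. For cNSCs they numbered 26, among them Vgf, Calca, Col4a6, Reln and Scg2, described above, and Pde1a, a calmodulin-dependent phosphodiesterase (0.906 FPKM in DTA iNSCs, 16.3 in cNSCs). Genes with at least 5 FPKM in cNSCs and in each of the 4 other iNSC libraries but under 1 FPKM in DTA iNSCs were 7 in number, including Mest, Nap1l5, Fbln2, Ddx3y, Cbr3, a carbonyl reductase (0.763 FPKM in DTA iNSCs, 17.6 in cNSCs), and Fam111a, a protease of DNA replication (0.0963 FPKM in DTA iNSCs and 36.2 in cNSCs).

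Cell cycle genes differed by phase. Of the 34 mitosis genes listed, all had at least 5 FPKM and all lay above 0 in the difference of DTA minus cNSC, with 6 of them 2-fold or more higher, 0 lower and a median of 0.68. Of the 31 DNA replication genes none was 2-fold apart, and the median was 0.05. These counts stand beside 4.58% higher and 5.68% lower over all genes compared. The mitosis genes thus shared a shift that the replication genes did not have, most of it under 2-fold. Cenpa, the histone of centromeres, had 77.6 FPKM in DTA iNSCs and 34.6 in cNSCs, and Birc5, the survivin subunit of the chromosomal passenger complex, had 109 FPKM in DTA iNSCs and 50.1 in cNSCs. Ube2c, which tags mitotic proteins for destruction, had 197 FPKM in DTA iNSCs and 93.1 in cNSCs. The spindle motor gene Kif11 had 53.6 FPKM in DTA iNSCs and 24.5 in cNSCs, and Cdc25c, the phosphatase that starts mitosis, had 18.2 FPKM in DTA iNSCs and 8.54 in cNSCs. The replication clamp gene Pcna had 303 FPKM in DTA iNSCs and 239 in cNSCs. The other iNSCs had 92.2 to 113 FPKM of Cenpa and MEFs 117 FPKM, so that the cNSC library was the lowest of the 7 for this gene.

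Mitosis genes are known to share promoter elements, the CHR (TTTGAA) and the CCAAT box. In the RefSeq windows of 300 bases around the start (GRCm38.p6), TTTGAA on either strand was found in 21 of the 27 mitosis genes that had a window (77.8%), against 15.3% of 17193 windows. CCAAT on either strand was found in 23 (85.2%), against 38.1%. The 2 motifs can share at most 1 letter. In the promoters shown next, both motifs are in capitals (TTCAAA and ATTGG are their reverse complements). Each promoter runs 5′ to 3′ on the gene's strand and ends at the base before the start. The promoters belong to 4 mitosis genes with TTTGAA within 120 bases of the start, in a window outside the gene's RefSeq span. These 4 genes are examples and not the 4 largest differences of the list. They are Kif11 chr19:37376262-37376381 (plus), Ube2c chr2:164769809-164769928 (plus), Cdc20 chr4:118437344-118437463 (minus) and Cdk1 chr10:69352913-69353032 (minus).
Kif11: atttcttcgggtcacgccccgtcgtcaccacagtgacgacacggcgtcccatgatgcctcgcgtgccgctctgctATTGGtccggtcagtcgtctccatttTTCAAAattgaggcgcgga
Ube2c: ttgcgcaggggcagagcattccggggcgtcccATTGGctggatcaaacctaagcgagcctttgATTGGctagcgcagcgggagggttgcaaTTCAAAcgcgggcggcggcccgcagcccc
Cdc20: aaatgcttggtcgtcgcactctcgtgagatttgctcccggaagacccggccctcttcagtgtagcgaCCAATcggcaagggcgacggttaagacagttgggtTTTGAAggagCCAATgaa
Cdk1: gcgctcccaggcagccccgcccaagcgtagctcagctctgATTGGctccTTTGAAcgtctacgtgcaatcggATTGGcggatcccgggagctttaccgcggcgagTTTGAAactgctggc
They hold TTTGAA once in Kif11, Ube2c and Cdc20 and at 2 places in Cdk1, and CCAAT once in Kif11 and at 2 places in the other 3. Cdk1, the kinase that drives mitosis, had 79.4 FPKM in DTA iNSCs and 52.1 in cNSCs, and Cdc20, an activator of the anaphase-promoting complex, had 101 FPKM in DTA iNSCs and 66.01 in cNSCs. Cdk1 and Cdc20 were thus under 2-fold apart. These matches are a description of letters and not of binding.

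Growth control genes were mixed. Cdkn2a, which encodes the tumour suppressors p16 and p19ARF, had 53.6 FPKM in DTA iNSCs and 20.9 in cNSCs, against 97.5 to 453 FPKM in the other iNSCs, and its neighbour Cdkn2b had 2.53 FPKM in DTA iNSCs and 22.4 in cNSCs. Of 20 genes of the p53 pathway and CDK inhibitors with at least 5 FPKM, 3 were higher and 1 was lower, beside 4.58% and 5.68% of all genes compared. Hmga1 and Hmga2, which encode chromatin proteins of fast-growing embryonic cells, were lower, at 12.9 and 9.45 FPKM in DTA iNSCs and 90.3 and 56.7 FPKM in cNSCs. These 2 genes were named after their values were seen.

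Immediate early genes, which respond to growth factors and stress without new protein synthesis, differed in both directions. Of 18 with at least 5 FPKM, 7 were 2-fold or more higher and 6 lower in DTA iNSCs, with a median of 0.23. These counts stand beside 4.58% higher and 5.68% lower over all genes compared. Fosb and Dusp1 passed the minimum through DTA iNSCs alone, and Fosl1 and Arc through cNSCs alone, so they had to differ. Fos, a subunit of the factor AP-1, had 138 FPKM in DTA iNSCs and 21.7 in cNSCs, and its relative Fosb had 21.1 FPKM in DTA iNSCs and 0.829 in cNSCs. The secreted matrix protein gene Cyr61 had 75.5 FPKM in DTA iNSCs and 7.46 in cNSCs, and Dusp1, a phosphatase of MAP kinases, had 20.6 FPKM in DTA iNSCs and 2.96 in cNSCs. Lower were Fosl1, another partner of Jun (0.343 FPKM in DTA iNSCs, 6.64 in cNSCs), the synaptic gene Arc (0.445 FPKM in DTA iNSCs and 5.15 in cNSCs) and the survival gene Ier3 (25.9 FPKM in DTA iNSCs and 89.7 in cNSCs).

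Most genes of the signalling lists were under 2-fold apart, and the counts stand beside 4.58% higher and 5.68% lower over all genes compared. Of 16 Notch pathway genes with at least 5 FPKM, 4 were higher and 3 lower: the ligand gene Dll1 had 32.6 FPKM in DTA iNSCs and 9.51 in cNSCs, whereas the ligand gene Jag1 had 6.34 FPKM in DTA iNSCs and 14.5 in cNSCs and Dner, a neuronal Notch-related receptor, had 16.9 FPKM in DTA iNSCs and 84.5 in cNSCs. Of 8 Hedgehog pathway genes 2 were higher and 0 lower, with the co-receptor gene Boc at 18.1 FPKM in DTA iNSCs and 5.13 in cNSCs and the receptor gene Ptch1 at 25.2 FPKM in DTA iNSCs and 12.2 in cNSCs, just under 2-fold. Of 21 Wnt pathway genes 3 were higher and 2 lower. The ligand gene Wnt7b had 12.98 FPKM in DTA iNSCs and 97.2 in cNSCs, and Rnf43, which removes Wnt receptors from the surface, had 0.197 FPKM in DTA iNSCs and 6.88 in cNSCs, while Nkd1, an inhibitor that Wnt signals induce, had 12.5 FPKM in DTA iNSCs and 2.12 in cNSCs. Of 21 FGF and EGF genes 2 were higher, among them the ligand gene Fgf1 (22.9 FPKM in DTA iNSCs, 9.18 in cNSCs), and 2 lower, among them the ligand gene Hbegf (25.1 FPKM in DTA iNSCs and 70.2 in cNSCs). Of 18 TGF-beta and BMP genes 1 was higher, the ligand gene Bmp7 (12.2 FPKM in DTA iNSCs and 3.22 in cNSCs), and 2 lower, with the signal carrier gene Smad3 at 10.8 FPKM in DTA iNSCs and 32.7 in cNSCs. Of 10 genes of the IGF system 4 were lower and 0 higher, the binding protein gene Igfbp3 having 273 FPKM in DTA iNSCs and 822 in cNSCs.

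Cholesterol synthesis genes were slightly lower as a list. Of 25 members with at least 5 FPKM, 23 lay below 0 in the difference, 4 of them 2-fold or more lower and 0 higher, with a median of -0.59, beside -0.0085 over all genes compared. The 4 were Lss, which closes the sterol ring (12.3 FPKM in DTA iNSCs, 36.4 in cNSCs), Mvd of the mevalonate pathway (17.2 FPKM in DTA iNSCs and 50.3 in cNSCs), the demethylating oxidase gene Msmo1 (68.8 FPKM in DTA iNSCs and 171 in cNSCs) and the isoprenoid isomerase gene Idi1 (11.1 FPKM in DTA iNSCs and 23.9 in cNSCs). The controlling factor gene Srebf2 had 94.7 FPKM in DTA iNSCs and 103 in cNSCs, under 2-fold apart. The letters TCACNCCAC of the sterol element, on either strand, were found in 1 of 18 promoter windows of these genes (5.56%), against 1.24% of all windows. In glycolysis 1 gene was higher and 4 were lower of 21, beside 4.58% and 5.68% of all genes compared. The lower ones included the transporter gene Slc2a3 (3.68 FPKM in DTA iNSCs, 25.2 in cNSCs) and the phosphofructokinase gene Pfkp (0.997 FPKM in DTA iNSCs and 11.5 in cNSCs).

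Stress and immune genes gave smaller groups. Targets of ATF4, the factor of the amino acid and unfolded protein response, and circadian clock genes were lists added after values were seen. The counts of this paragraph stand beside 4.58% higher and 5.68% lower over all genes compared, and only describe the members. Trib3 and Dbp, for example, passed the minimum through DTA iNSCs alone, and Gbp2, Gbp3 and Bst2 through cNSCs alone, so they had to differ. Of 17 ATF4 targets with at least 5 FPKM 5 were higher and 0 lower, among them the pseudokinase gene Trib3 (19.6 FPKM in DTA iNSCs, 1.14 in cNSCs) and the stress factor gene Ddit3 (39.1 FPKM in DTA iNSCs and 10.6 in cNSCs), while Atf4 itself had 184 FPKM in DTA iNSCs and 124 in cNSCs. Of 13 clock genes 5 were higher and 0 lower, with the output factors Dbp and Tef at 9.49 and 35.4 FPKM in DTA iNSCs and 2.96 and 12.8 in cNSCs. Hmox1, the haem-degrading enzyme of oxidative stress, had 220.4 FPKM in DTA iNSCs and 37.8 in cNSCs. Of 11 interferon-stimulated genes 1 was higher and 3 were lower. The higher one was Ifitm2 (294 FPKM in DTA iNSCs and 131 in cNSCs). The lower ones were Gbp2 (1.66 FPKM in DTA iNSCs and 19.8 in cNSCs), Gbp3 (0.761 FPKM in DTA iNSCs and 12.2 in cNSCs) and Bst2 (1.18 FPKM in DTA iNSCs and 6.68 in cNSCs). All 35 genes of the list summed to 850 FPKM in DTA iNSCs and 518.7 in cNSCs. Most of both sums came from Ifitm2 and Ifitm3 (Ifitm3 459 FPKM in DTA iNSCs and 242 in cNSCs), so they do not describe the other members. Of the list, 16 genes had at least 1 FPKM in DTA iNSCs and 25 in cNSCs. The letters of the interferon response element (GAAA, any 2 bases, GAAA, on either strand) were found in 12 of 26 windows of the interferon list (46.2%), against 3.33% of all windows. The antigen-presenting gene H2-K1 had 5.03 FPKM in DTA iNSCs and 25.5 in cNSCs, and was the only 1 of 13 antigen presentation genes with at least 5 FPKM that was 2-fold apart.

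**Figure D5:**
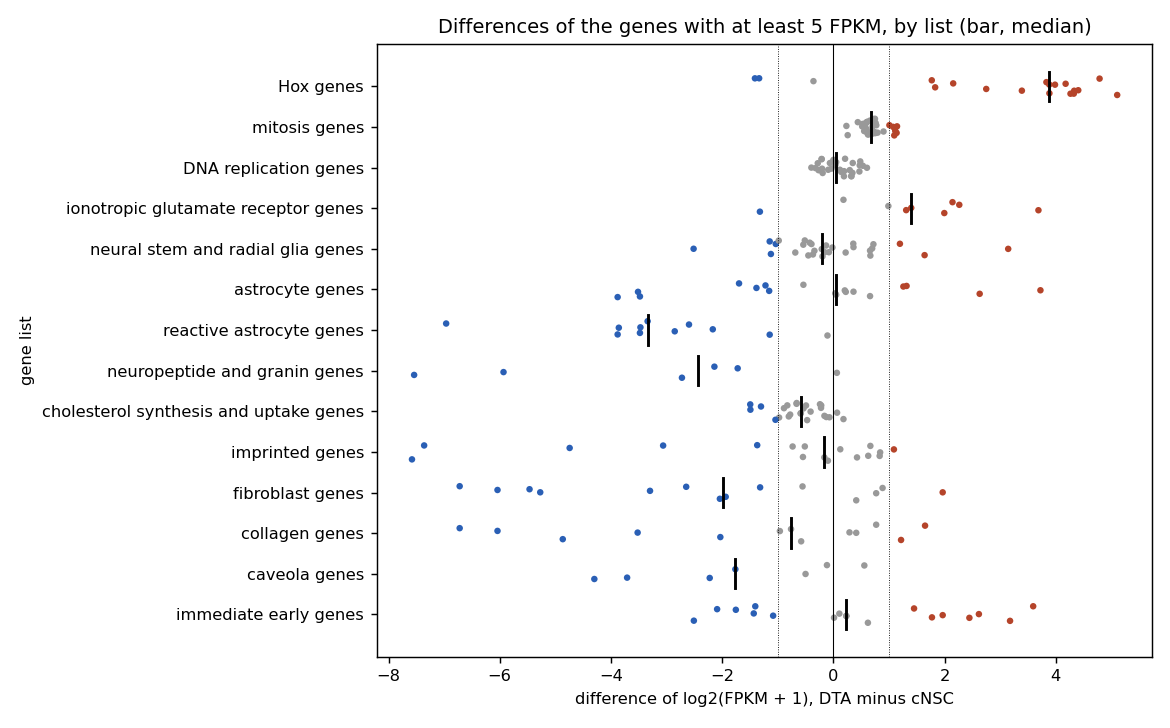
Difference of log2(FPKM + 1), DTA minus cNSC, of the members of 14 gene lists that reached 5 FPKM in the higher library (points), with the median of each list as a black bar and dotted lines at 2-fold. The Hox points lie mostly right of 2-fold, the reactive astrocyte points mostly left of it, and the mitosis points form a narrow cluster around 0.68 right of the replication points at 0.05.

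Markers of other cell types were low on both sides. The microglial genes Cx3cr1, Aif1, C1qa, C1qb, C1qc and Trem2 were listed at 0 in both libraries, and the summed level of the 17 genes listed was 49.6 FPKM in DTA iNSCs and 23.5 in cNSCs. Lyz2, the lysozyme gene of macrophages, had 16.1 FPKM in DTA iNSCs and 1.103 in cNSCs, with 43.98 FPKM in MEFs and 0 listed in the other iNSCs. Of the endothelial genes, Cdh5, Tie1, Cldn5 and Sox17 were listed at 0 in both, and Plvap had 6.96 FPKM in DTA iNSCs and 15.3 in cNSCs. The summed level of the 10 red blood cell genes in the table was 0.199 FPKM in DTA iNSCs and 0.253 in cNSCs. Of 12 ependymal and choroid plexus genes only Foxj1, the factor of motile cilia, reached 5 FPKM, with 12.99 in DTA iNSCs and 14.1 in cNSCs. Of 14 neural crest and Schwann cell genes 2 did, Pmp22 higher (37.7 FPKM in DTA iNSCs and 16.4 in cNSCs) and Egr2 lower in DTA iNSCs.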

How the data were processed

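RNA sequencing libraries were made from pooled RNA, per the labels' protocols. The authors deposited FPKM values for 24354 gene symbols in 7 columns. The submitters' processing notes list the tools R 3.3.2, Cuffnorm, Cufflinks 2.2.1 and STAR 2.5.2b and the mouse build mm10, without their roles or settings. Because FPKM sets libraries to a common size, it does not show the amount of RNA in a cell.

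From these values the difference of log2(FPKM + 1), DTA minus cNSC, was computed with a pseudocount of 1 for genes of at least 5 FPKM in the higher column (Python 3.11.15, pandas 2.3.3, numpy 2.4.6). Differences of 2-fold and 4-fold were counted. With 1 library per side no test was made. The 35 gene lists, the genes named and the alternatives were chosen with earlier results of these data known, and 9 lists were added after values were seen. Genes named from a list are its largest differences (up to 6), together with the 20 largest each way; further members given as values, and genes outside the lists, were chosen after their values were seen. Names of predicted genes, ribosomal proteins, snoRNAs and miRNAs were counted but not named; the snoRNAs Snord and Snora and the near copies Eno1b, Eif3j1 and Eif3j2, whose reads may be split between copies, are not interpreted. Of 920 list genes 917 matched the table. Depth was estimated from the step between low values of 2635 genes with 1 annotated transcript (within 0.1 of a whole fragment for 73.4% to 81.1% of the low values per library, where even spacing gives 20.0%). Coordinates, names and promoter windows were taken from RefSeq tables on GRCm38.p6, the build of mm10, and genes of the motif lists matched by symbol where a window was given.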

Additional observations from a re-analysis of the deposited data

How the results depend on the processing

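No paired analysis was possible because each side is 1 pooled library. For the same reason no replicate could be left out. With a pseudocount of 5, 256 genes were 2-fold or more higher and 346 lower in DTA iNSCs, and 42 and 86 at 4-fold. With a minimum of 20 FPKM the counts were 205 higher and 283 lower, and 56 and 107 at 4-fold, and 62.9% of the higher and 66.4% of the lower genes had at least 5 FPKM in MEFs. With a minimum of 1 FPKM, as with none, these shares were 39.4% and 47.1%. A pseudocount of 0.1, scaling to the same median, quantile normalization, and leaving out skipped names or, as an alternative added after seeing the data, genes listed at 0 (417 higher and 520 lower) each kept all 6 summary values within the limits set. These limits were 1.5 times for counts, and the interval of the share. The median difference over all genes compared lay between -0.031 and 0.012 under all settings run. The list median of pericyte and smooth muscle genes was 0.50 with a minimum of 20 FPKM, against -2.59, and that of fibroblast genes was 0.044 with no minimum, against -1.99; fewer or more members entered. Of 184 named genes, 33 moved to under 2-fold with a pseudocount of 5 and 2 with quantile normalization. A change of pseudocount, minimum or gene set cannot turn the sign of a gene's difference. Only scaling to the same median and quantile normalization could turn it. Under these, none of the 172 named genes 2-fold or more apart changed direction. Depth limits values under about 0.1 FPKM, which are at the floor.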
